A study of Mus musculus with 8 samples.

Results

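The Rab GTPases described here are the 57 mouse genes, of 55401 genes measured, whose symbol is Rab followed by a number of at most 2 digits and at most 1 letter, leaving out Rab27a and Rab27b. The RNA came from AtT-20, a corticotrope tumour line of the mouse pituitary that stores and secretes products of the hormone precursor Pomc. All cells carried ER-Pax7, an ectopically expressed form of the melanotrope pioneer factor Pax7 that tamoxifen switches on, and they grew in DMEM with 10% fetal bovine serum and antibiotics. The 4 groups were cells after 0, 24, 48 or 72 h of tamoxifen, with n = 2 libraries each. The labels do not say whether the 2 libraries of a time came from separate cultures, nor whether the line is 1 clone, and p-values therefore measure only the spread between libraries, which may be technical. Because every group carries ER-Pax7 and libraries of cells without tamoxifen at the later times were not used here, its activation, tamoxifen itself and time in culture cannot be told apart.

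Rab proteins are small GTPases that mark the membranes of the secretory and endocytic pathways. Each cycles between a GTP-bound form on a membrane, where it recruits effectors such as tethers and motors, and a GDP-bound form held in the cytosol. In endocrine cells the Rab3 proteins sit on dense-core granules and act in regulated exocytosis, the step by which stored hormone is released.

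Values are the mean read coverage over each gene's merged exons, as normalized by the authors, and are called signal below. Signal is already per base of exon, so levels of different genes were compared as they stand. Merged exon length ran from 761 (Rab42) to 13589 bases (Rab14) among the Rab genes. How far unused exons or bases shared with other genes alter these levels was not tested. The signal of all genes summed to between 164236 and 178548 in each library; the labels and files give no read depth, and no counting error could be stated. Libraries of the same time correlated at r = 0.978 to 0.994 across genes, which are not independent replicates, and for 0 of the 6 later libraries was the most similar library the other one of that time. Each later library except 72 h replicate 2 was most similar to a library of its own replicate number at another time. The corticotrope list had a summed signal of 535 to 728 per library, and 4 of its 6 genes had a mean of at least 1. The other pituitary hormone list summed to 0.179 to 0.239 with Fshb, Tshb and Prl at 0, the fibroblast list to 0.233 to 0.555 with Col1a2 at 0, the immune list to 0.0821 to 0.183, and the endothelial list to 0.0246 to 0.0695 with Kdr at 0. In the melanotrope list, which summed to 13.3 to 15.8, 1 of 4 genes had a mean of at least 1, Pax7 itself, and the dopamine receptor gene Drd2 was at 0.

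The Rab genes lie on 18 chromosomes, and RefSeq promoter sequences of the build GRCm38.p6 were at hand for 47 of the 57. Their windows, from 250 bases before to 50 after the most upstream annotated start, had a median of 20 CpG dinucleotides, against 7 over all 27025 genes in the table, and a median GC content of 62.0% against 52.7%. The 27 windows of genes whose mean signal reached 1 or more had a median of 26 CpG, and the 20 of lower genes had 16.5. Motifs were searched on both strands. The GC box GGGCGG was in 33 of the 47 windows (70.2%) and in 35.9% of all windows. The CCAAT box was in 23 (48.9%, against 38.0% of all), the E-box CACGTG in 5 (10.6% against 7.24%), the cyclic AMP response element TGACGTCA in 2 (4.26% against 1.85%) and the homeodomain core TAATTA in 1, Rab39b (2.13% against 5.32%). None of the motifs is contained in another, though GC boxes can overlap each other, and a match is a description and not a binding site. The windows of all genes were taken whatever their signal. No background of expressed genes alone was taken, so these gaps are not shown to be particular to Rab genes.

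The 250 bases before the start are shown for 4 genes that the results below turn on, on the strand of the gene and 5′ to 3′. They are the highest member of the secretory Rab3 family, its lowest member, the tested gene with the highest difference at 72 h, and a late endosomal gene among the most abundant. Capitals mark matches to the 5 motifs above.
Rab3a promoter, chr8:70754453-70754702, + strand: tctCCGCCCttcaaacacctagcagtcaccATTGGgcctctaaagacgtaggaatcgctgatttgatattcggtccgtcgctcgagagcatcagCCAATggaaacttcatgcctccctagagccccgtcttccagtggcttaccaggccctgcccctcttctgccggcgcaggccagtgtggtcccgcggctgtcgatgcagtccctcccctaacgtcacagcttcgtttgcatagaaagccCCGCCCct
Rab3b promoter, chr4:108878820-108879069, + strand: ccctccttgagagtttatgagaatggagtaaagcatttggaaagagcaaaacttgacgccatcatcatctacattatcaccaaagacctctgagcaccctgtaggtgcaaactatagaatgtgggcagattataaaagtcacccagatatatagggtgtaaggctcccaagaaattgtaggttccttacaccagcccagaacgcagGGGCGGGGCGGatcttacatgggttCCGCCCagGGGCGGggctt
Rab34 promoter, chr11:78188177-78188426, + strand: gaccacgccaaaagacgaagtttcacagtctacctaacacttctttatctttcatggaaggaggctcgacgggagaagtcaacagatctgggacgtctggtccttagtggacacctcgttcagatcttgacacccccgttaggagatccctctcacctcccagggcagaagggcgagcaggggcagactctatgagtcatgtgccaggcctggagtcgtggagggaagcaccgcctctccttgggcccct
Rab7 promoter, chr6:88045271-88045520, - strand: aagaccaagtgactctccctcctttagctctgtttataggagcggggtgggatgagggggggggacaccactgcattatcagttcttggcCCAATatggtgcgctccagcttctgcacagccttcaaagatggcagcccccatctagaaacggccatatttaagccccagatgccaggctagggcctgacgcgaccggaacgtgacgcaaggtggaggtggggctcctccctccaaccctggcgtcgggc
Rab3a held 16 CpG in this stretch, Rab7 held 10, Rab34 held 10 and Rab3b held 6. The Rab3b stretch had 4 GC boxes, overlapping ones included, and the Rab3a stretch had 2 GC boxes and 2 CCAAT boxes. The Rab34 stretch had no match to any of the 5 motifs.

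A few housekeeping members led the Rab signal, and the total differed between times by less than between the 0 h libraries. The sum over the 57 genes was 144.6 ± 4.20 (SD, n = 2) before tamoxifen. It was 145.9 ± 1.62 at 24 h, 143.9 ± 0.293 at 48 h and then 143.1 ± 0.941 at 72 h. That was 0.0855%, 0.0839%, 0.0850% and 0.0842% of all signal. Rab6a, Rab2a, Rab7, Rab1a and Rab11a together held 35.3% to 36.9% of the Rab sum in every library. Of the 57 genes, 30 had a mean of at least 1 over the 8 libraries and were tested, 18 lay from 0.1 to below 1, and 9 lay under 0.1. Rab20, Rab32 and Rab42 were listed at 0 in every library.

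**Figure D1:**
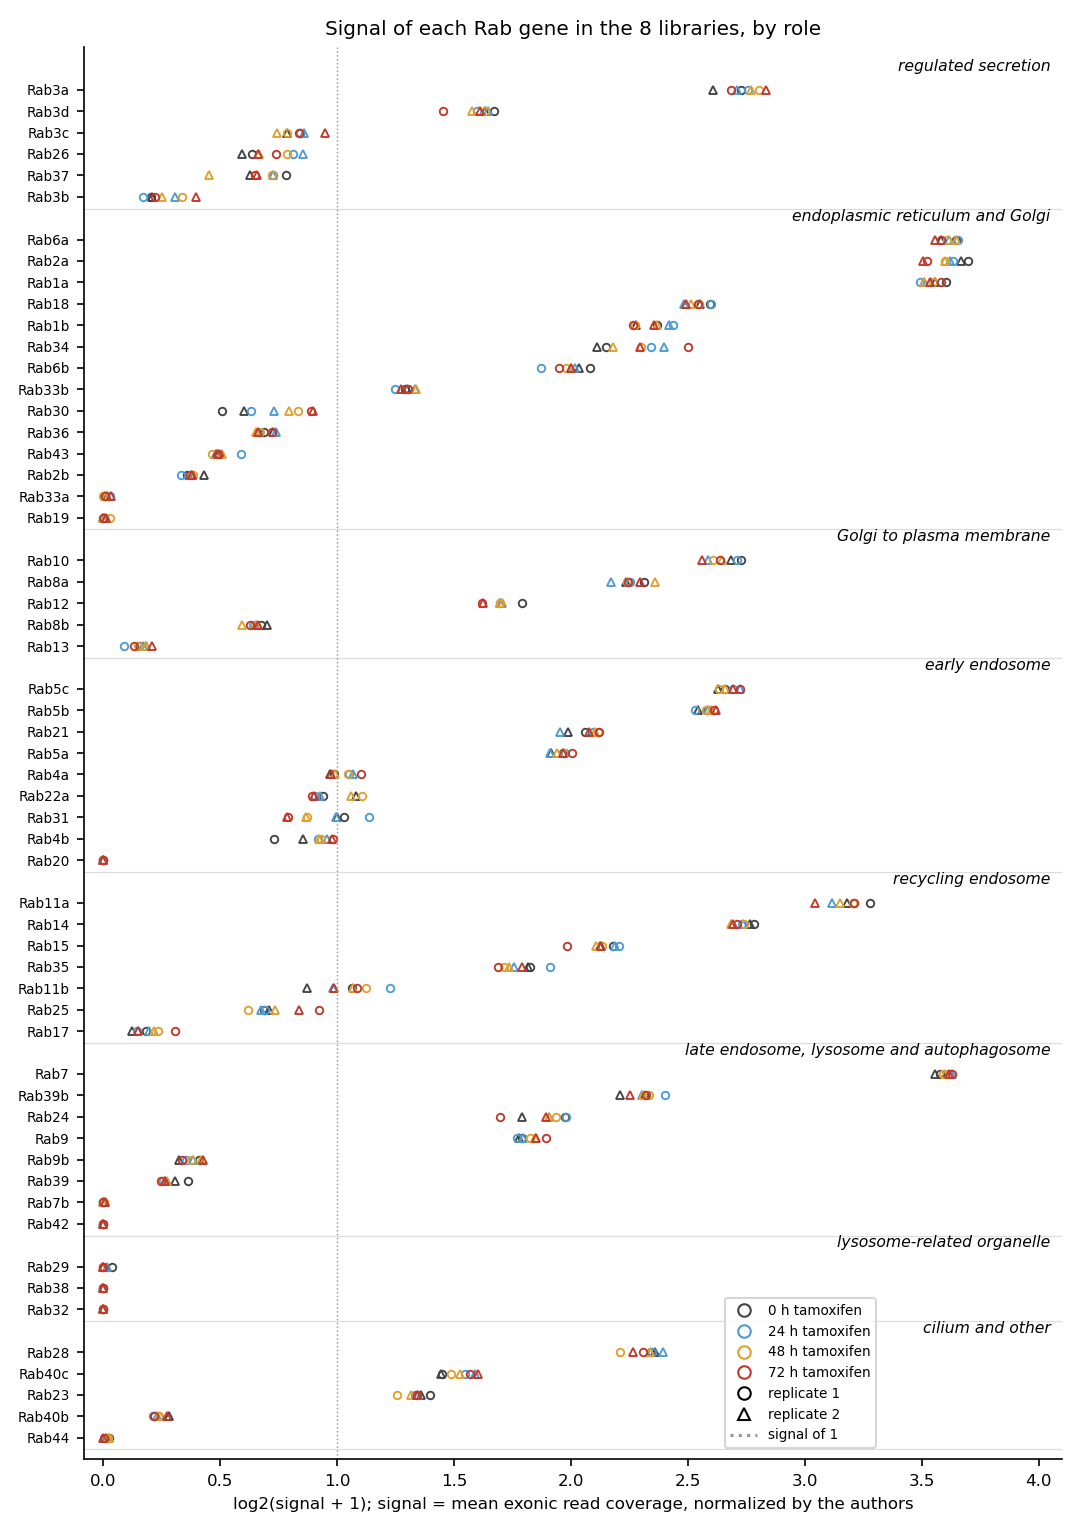
Signal of each of the 57 Rab genes in each of the 8 libraries, as log2(signal + 1) on the horizontal axis, grouped by the role of the protein; colour gives hours of tamoxifen and shape the replicate. The dotted line marks a signal of 1, and for most genes the 8 points lie close together compared with the distances between genes.

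Genes of the endoplasmic reticulum and Golgi, 14 members, held 35.8% to 36.7% of the Rab sum. Rab2a, which acts between the endoplasmic reticulum and the Golgi, was the most abundant member at 0 h at 11.9 ± 0.179, and its libraries (12.0 and 11.7) lay above those of the next in order. Rab6a, a regulator of retrograde Golgi traffic, stood at 11.2 ± 0.382, Rab1a, which directs transport from the endoplasmic reticulum to the Golgi, at 10.97 ± 0.289, and Rab7, the late endosomal Rab, at 10.9 ± 0.137. The SDs of these last genes overlap at 0 h, and their order is not resolved. Rab18, found on lipid droplets and the endoplasmic reticulum, had 4.95 ± 0.124 and Rab1b 4.01 ± 0.226, while Rab19 and Rab33a stayed under 0.03 in all libraries.

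Endosomal Rab genes formed the next layers. The 7 recycling endosome genes held 14.4% to 15.3% of the Rab sum, led by Rab11a, the defining Rab of that compartment, with 8.38 ± 0.456 at 0 h, and Rab14 with 5.85 ± 0.0477. The 8 late endosome, lysosome and autophagosome genes held 14.0% to 14.7%, most of it Rab7. The 9 early endosome genes held 13.6% to 14.5%, spread over Rab5c at 5.26 ± 0.0957, Rab5b at 4.91 ± 0.113, Rab21 at 3.07 ± 0.146 and Rab5a at 2.84 ± 0.0985. The Rab5 proteins drive fusion of early endosomes, and Rab21 takes part in integrin uptake. The 5 genes for traffic from the Golgi to the plasma membrane held 7.93% to 8.64%, with Rab10 at 5.53 ± 0.125 and Rab8a at 3.83 ± 0.181.

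Regulated secretion, with 6 members, held 6.45% to 7.44% of the Rab sum. Rab3a, the granule and synaptic vesicle Rab, had signals of 5.62 and 5.09 at 0 h, 5.77 and 5.54 at 24 h, 5.99 and 5.83 at 48 h, and 5.43 and 6.13 at 72 h. The 48 h libraries were above both 0 h libraries, and the 72 h libraries overlapped them. Rab3d, a granule Rab of endocrine and exocrine cells, followed at 2.14 ± 0.0554 at 0 h. Rab3c, Rab26 and Rab37, which also act on secretory vesicles, lay from 0.367 to 0.933 in all libraries.

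Rab3b had signals of 0.152 and 0.157 at 0 h, 0.124 and 0.238 at 24 h, 0.262 and 0.189 at 48 h, and 0.167 and 0.317 at 72 h. Both libraries of 48 and 72 h lay above both 0 h libraries, and the spread at 24 and 72 h was wide. Of its exonic bases, 8.995% lie in exons of another gene, 8030443G20Rik on the opposite strand. The 3 genes of lysosome-related organelles, Rab29, Rab32 and Rab38, held at most 0.0175% of the Rab sum. The 5 cilium and other genes held 4.86% to 5.53%, led by Rab28, a ciliary Rab, at 4.11 ± 0.0409.

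Among close paralogues, which share a number and overlap in function, 1 member usually dominated. Rab2a held 97.4% ± 0.428 (SD, n = 2) of the Rab2 signal at 0 h and 97.2% ± 0.0786 at 72 h. Rab1a held 73.3% and 73.2% of the Rab1 signal at the same times, Rab6a 78.0% and 78.8% of the Rab6 signal, and Rab11a 89.8% and 88.1% of the Rab11 signal. In the Rab5 family the signal was spread over 3 genes, with Rab5c at 40.4% and 40.6%, Rab5b at 37.7% and 37.7%, and Rab5a at 21.9% and 21.7%.

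Within the Rab3 family, Rab3d held 24.9% and 26.0% in the 0 h libraries, 23.3% and 24.4% at 24 h, 23.2% and 22.9% at 48 h, and 21.4% and 21.8% at 72 h. Both 72 h libraries lay below every other library, a placing noted after values were seen and not counted over the other paralogues. Rab3a held 63.7% ± 0.898 at 0 h and 65.9% ± 1.37 at 72 h, Rab3c 9.02% and 9.80%, and Rab3b 1.84% and 2.71%. These shares were not tested: with 2 libraries against 2 an exact permutation test cannot go below p = 0.333 (2-sided). Rab4a held 59.8% and 54.4% of the Rab4 signal in the 0 h libraries and 54.1% and 49.8% at 72 h. That gap is narrow beside the spread within each time, and 65.0% of the exonic bases of Rab4b lie in exons of another gene. Rab39 held 6.71% and 6.17% of the summed Rab39 and Rab39b signal at 0 h, and 4.38% to 5.09% in all later libraries.

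**Figure D2:**
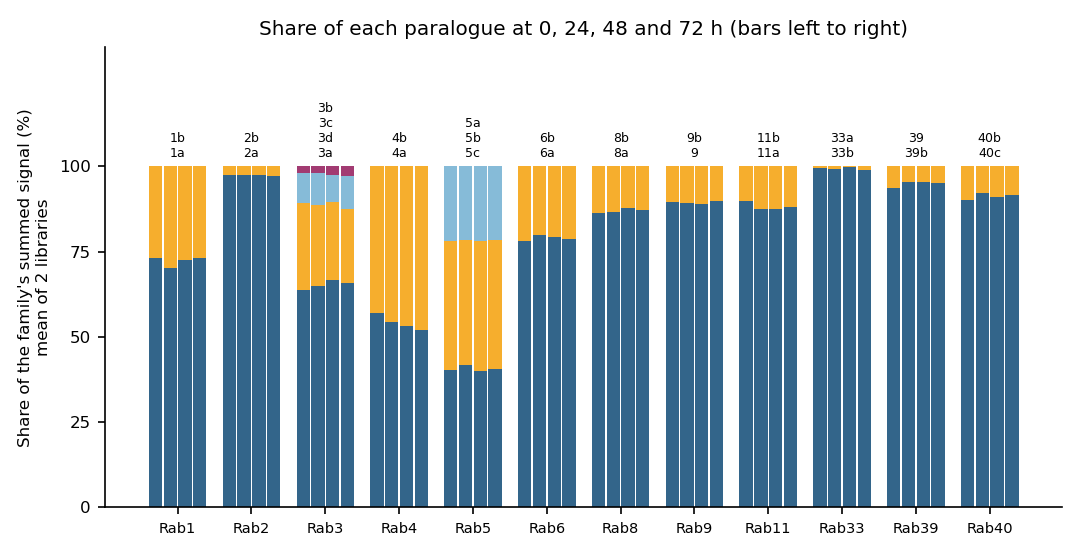
Share of each paralogue in the summed signal of its family, in percent on the vertical axis, as the mean of 2 libraries at 0, 24, 48 and 72 h from left to right; the names above each family follow the colours from top to bottom. Rab2a stays near 97% and the share of Rab3d goes from 25.5% to 21.6%.

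Whether tamoxifen time altered Rab expression was tested with limma on log2(signal + 1) over all 9606 genes with a mean of at least 1, at a Benjamini-Hochberg adjusted p of 0.05. None of the 30 tested Rab genes passed at any time. At 24 h 0 of 30 were called, against 0.229% of all genes tested (22 of 9606), at 48 h 0 of 30 against 0.552% (53 genes), and at 72 h 0 of 30 against 2.01% (193 genes). The counts over all genes depended on single libraries: leaving out 1 library gave 2 to 104 genes at 24 h, 2 to 95 at 48 h and 9 to 320 at 72 h, lowest without a 0 h library and highest without a 24 h library, and the Rab count was 0 in each of these fits. The move was over 1.5 times without any 1 of the 8 libraries, except for the 72 h libraries in the comparison of 48 h with 0 h. With background shares this low, 0 of 30 is near the background and is not a result about the Rab genes. The same count was 0 for 72 h against 24 h (0.0208% of all genes), for the F test over the 3 times (0.344%) and for a linear term in time (1.96%). In bulk RNA, fewer cells expressing a gene and less RNA per cell cannot be told apart.

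The smallest limma adjusted p among Rab genes was 0.279 at 24 h (Rab34), 0.534 at 48 h (Rab23) and 0.133 at 72 h (Rab2a). At an unadjusted p under 0.05 there were 2 of 30 (6.67%) at 24 h against 13.2% of all genes, 0 at 48 h against 10.5%, 4 (13.3%) at 72 h against 15.7%, and 2 for 72 h against 24 h against 13.6%. The 3 comparisons with 0 h share the same 0 h libraries and are not independent.

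The limma intervals reflect only the spread between libraries, which may be technical, and are not adjusted for the number of genes. They are on the log2(signal + 1) scale, which understates changes of low genes, so they are not bounds on fold changes. All 30 limma 95% intervals lay within ±0.5 on that scale at each time, and 26, 27 and 23 of them lay within ±0.25 at 24, 48 and 72 h. The log2 differences at 72 h ran from -0.17 (Rab2a) to 0.27 (Rab34), with a median of -0.02 over the Rab genes and 0.01 over all 9606 genes. The median size of the difference was 0.070 for Rab genes and 0.068 for all genes. Replicates of a time differed by a median of 0.036 to 0.050 for Rab genes and 0.055 to 0.091 for all genes.

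**Figure D3:**
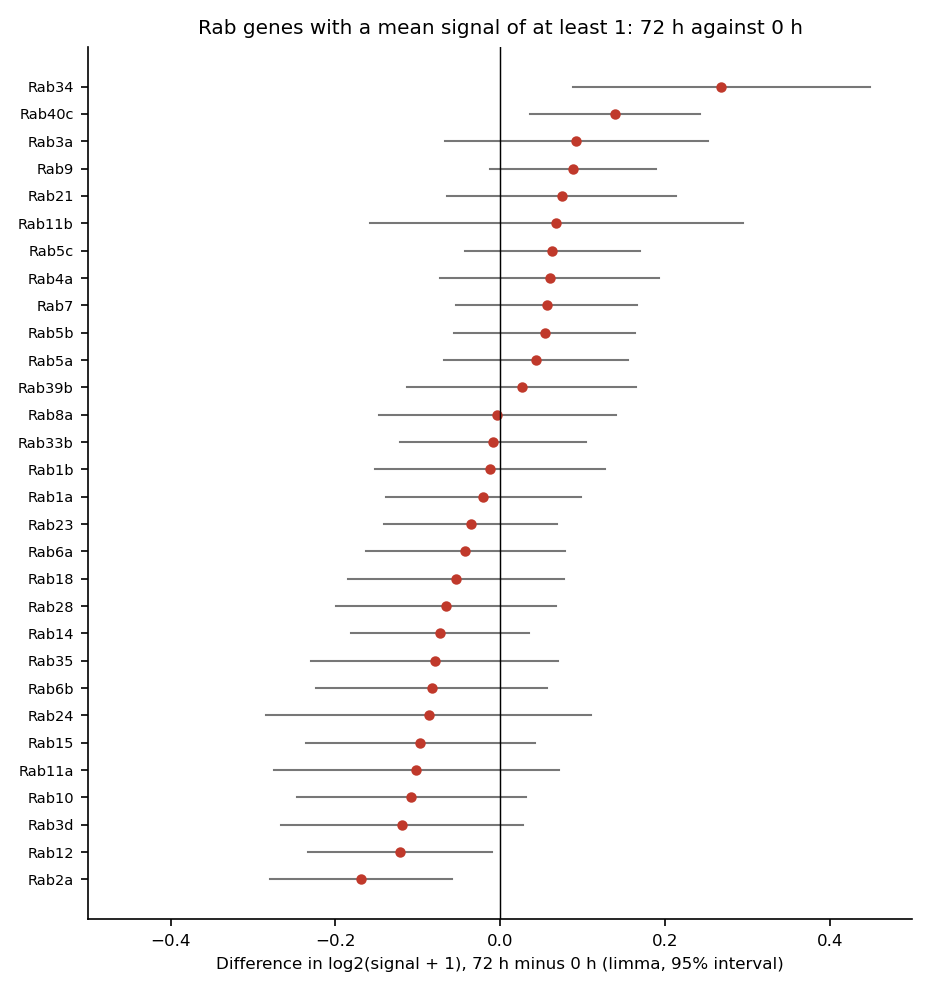
Difference in log2(signal + 1) between 72 h and 0 h for the 30 tested Rab genes, with limma 95% intervals that are not adjusted for the number of genes; positive values are higher at 72 h. The intervals of Rab34 and Rab40c lie above 0, those of Rab2a and Rab12 below, and the other 26 hold 0.

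The libraries can also be compared without a model. Both 72 h libraries were above both 0 h libraries for 7 of 30 Rab genes (23.3%, against 27.4% of all genes tested): Rab7, Rab21, Rab5b, Rab34, Rab5c, Rab40c and Rab9. Both were below for 10 (33.3%, against 22.4%): Rab23, Rab14, Rab2a, Rab28, Rab35, Rab3d, Rab6b, Rab10, Rab12 and Rab18. The log2 difference at 72 h was positive for 12 and negative for 18 of the 30 Rab genes, and 53.3% of all genes were positive. By role, it was positive for 5 of 5 tested early endosome genes (median 0.06), 3 of 4 of the late endosome group (0.04), 1 of 2 of regulated secretion (-0.01), 1 of 3 of the cilium and other group (-0.04), 1 of 5 of the recycling endosome (-0.08), 1 of 8 of the endoplasmic reticulum and Golgi (-0.03) and 0 of 3 of the Golgi to plasma membrane group (-0.11). None of these genes passed the test. Genes with a mean under 1 are not in these role counts. Among the early endosome genes left out, the ratio of means at 72 h was 0.715 for Rab31, 0.848 for Rab22a and 1.33 for Rab4b. Rab20 was at 0. For the recycling endosome genes left out it was 1.35 (Rab25) and 1.55 (Rab17). For those of regulated secretion it was 1.57 (Rab3b), 1.18 (Rab26), 1.13 (Rab3c) and 0.904 (Rab37). Endoplasmic reticulum and Golgi genes from 0.1 to below 1 had 1.82 (Rab30), 1.01 (Rab43), 0.970 (Rab36) and 0.946 (Rab2b). The role counts therefore do not describe the low members.

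Rab2a (chr4:8535644-8607778 in GRCm38) had signals of 12.0 and 11.7 at 0 h, 11.4 and 11.3 at 24 h, 11.1 and 11.1 at 48 h, and 10.5 and 10.4 at 72 h. Each time lay below the one before without overlap. The ratio of means at 72 h was 0.880 and the log2 difference was -0.17 ± 0.047 (SE), with a limma adjusted p of 0.133. It was 1 of 30 tested Rab genes in falling order over the 4 times, a pattern chosen after values were seen, and 0.354% of all tested genes (34) showed it. In rising order there were 0 Rab genes, against 0.75% of all (72).

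Rab34 (chr11:78188430-78192193), a Golgi Rab that also acts in building cilia, had signals of 3.44 and 3.32 at 0 h, 4.07 and 4.28 at 24 h, 3.92 and 3.53 at 48 h, and 4.66 and 3.92 at 72 h. All 6 later libraries lay above both 0 h libraries, and the 72 h libraries differed the most from each other. That placing was not counted over all genes, though 27.4% of genes tested had it at 72 h alone. The log2 difference was 0.24 ± 0.077 (SE) at 24 h, 0.11 at 48 h and 0.27 ± 0.077 at 72 h, with limma adjusted p of 0.279, 0.712 and 0.145.

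Rab40c, which carries a SOCS box and works with ubiquitin ligases, had 1.73 and 1.72 at 0 h, 1.92 and 2.01 at 24 h, 1.80 and 1.88 at 48 h, and 1.97 and 2.03 at 72 h. Again all later libraries were above both 0 h libraries, a placing not counted over all genes. Its log2 difference at 72 h was 0.14 ± 0.044 (SE), with a limma adjusted p of 0.181. Rab9, which returns receptors from late endosomes to the Golgi, had 2.46 and 2.43 at 0 h, against 2.72 and 2.61 at 72 h (log2 difference 0.09, limma adjusted p = 0.377). Rab21 had a difference of 0.07 (limma adjusted p = 0.609), and Rab3a 0.09 (0.577 in the same limma fit).

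Among the members with the lowest differences, Rab12 had 2.46 and 2.24 at 0 h, against 2.07 and 2.08 at 72 h. It is a substrate of the kinase Lrrk2 and was counted with the Golgi to plasma membrane group. The log2 difference was -0.12 ± 0.047 (SE), with a limma adjusted p of 0.285. Rab3d had 2.18 and 2.10 at 0 h, against 1.74 and 2.06 at 72 h, a difference of -0.12 ± 0.062 (limma adjusted p = 0.423). Rab10 had -0.11 (limma adjusted p = 0.444) and Rab11a -0.10 (limma adjusted p = 0.568). The 0 h and 72 h libraries did not overlap for Rab12, Rab3d and Rab10; for Rab11a, with 8.71 and 8.06 against 8.25 and 7.26, they did. Rab6a and Rab7, the most abundant members beside Rab2a, had differences of -0.04 (limma adjusted p = 0.775) and 0.06 (limma adjusted p = 0.627).

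The low members were tested in a limma fit that took genes from a mean of 0.1 upwards and added 0.1 before the log, called the lower floor, which covered 17871 genes and 48 of the 57 Rab genes. In this fit 1 of 48 Rab genes was called at 72 h, Rab30, against 1.57% of all genes (281 of 17871). At 24 h (0.162% of all) and 48 h (0.548%) 0 of 48 were called. A linear term in time, added after values were seen, also called Rab30 alone, 1 of 48 against 1.27% of all genes. Counts of 0 or 1 of 48 are near these shares and are not a result about the Rab genes.

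Rab30 (chr7:92741603-92844535), a Rab of the Golgi stacks, had signals of 0.422 and 0.516 at 0 h, 0.552 and 0.659 at 24 h, 0.782 and 0.734 at 48 h, and 0.850 and 0.861 at 72 h. Each time lay above the one before without overlap, an order shown by 0.588% of all genes in this fit (105). The ratio of means was 1.29 at 24 h, 1.61 at 48 h and 1.82 at 72 h. The slope was 0.25 per day, with a limma adjusted p of 0.0118. That linear term was chosen after values were seen and uses the same libraries, so it is no separate support. The log2 difference at 72 h was 0.75 ± 0.12 (SE), with a limma adjusted p of 0.0294. The call was lost without any 1 of the 0, 48 or 72 h libraries, with log2 differences of 0.63 to 0.87. The 24 and 48 h libraries do not enter the difference itself, only the estimate of its spread. Without a filter and with a pseudocount of 1, the difference was 0.34 and the limma adjusted p 0.116. No exonic base of Rab30 lies in an exon of another gene, and 0.258% of its 50-base words occur in transcripts of other genes.

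Other low members, chosen after their values were seen, had courses that differed from each other. Rab31, an early endosomal and trans-Golgi relative of Rab22a, had 1.040 and 1.002 at 0 h, 1.20 and 0.992 at 24 h, 0.832 and 0.826 at 48 h, and 0.732 and 0.727 at 72 h. Its log2 difference at 72 h was -0.43 ± 0.099 (SE), with a limma adjusted p of 0.0988. It was not called in this fit of all 8 libraries. The 24 h libraries do not enter that difference, so leaving either out could not change its size. Rab4b, of endosomal recycling, went from 0.659 and 0.807 to 0.978 and 0.972 (limma adjusted p = 0.148), and Rab25, an epithelial relative of Rab11, from 0.612 and 0.637 at 0 h to 0.897 and 0.785 at 72 h (limma adjusted p = 0.195), with 0.535 to 0.665 in the 24 and 48 h libraries. Rab26 was highest at 24 h, with 0.756 and 0.807 against 0.554 and 0.510 at 0 h (limma adjusted p = 0.237). Rab3b had a difference of 0.39 ± 0.27 at 72 h, with a limma adjusted p of 0.582 and a 95% interval from -0.24 to 1.03.

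**Figure D4:**
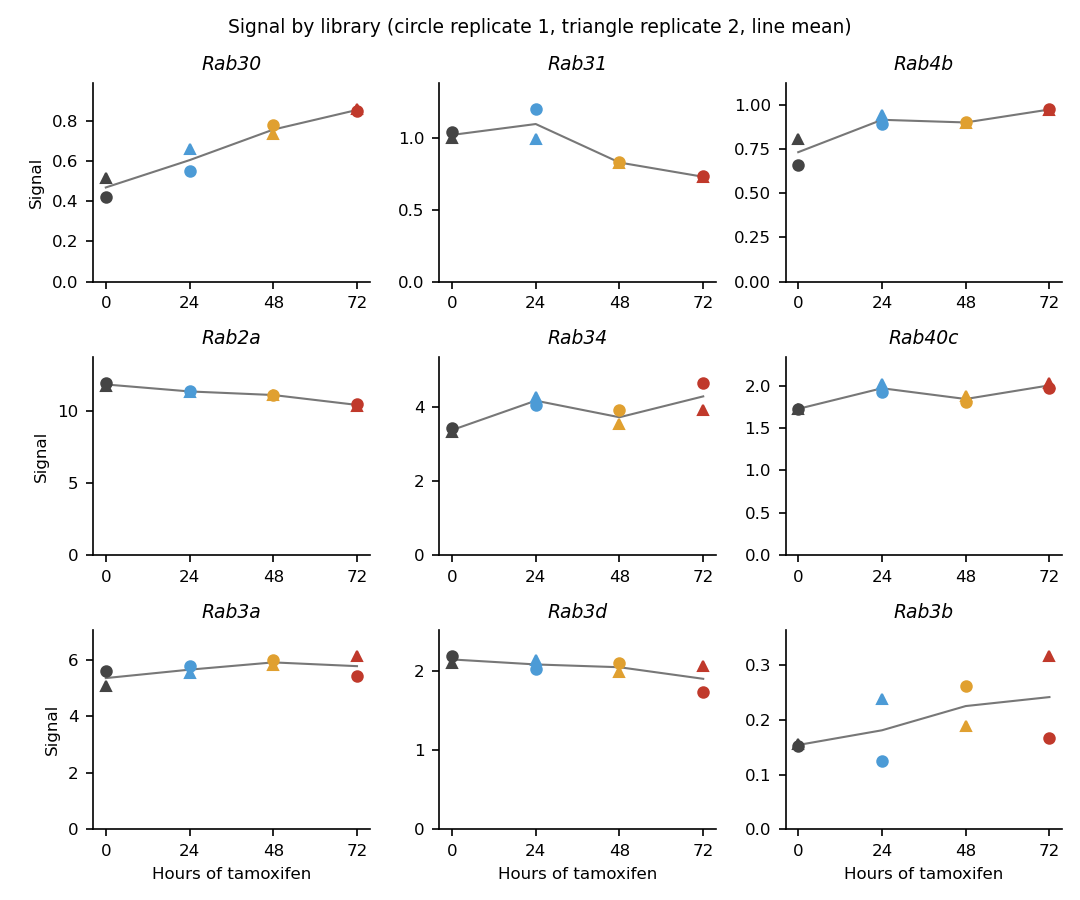
Signal of 9 Rab genes against hours of tamoxifen, with each library as a point and the mean of 2 as a line; every vertical axis starts at 0 and has its own scale. Rab30 goes up and Rab2a down in order over the 4 times, and the Rab3b libraries of 24 and 72 h lie far apart.

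The proteins that load, activate, switch off and read Rab GTPases were followed through 10 lists with 178 genes, of which 97 were tested. Over all lists, 0 of the 97 were called higher at any time, and 2, 1 and 1 were called lower at 24, 48 and 72 h, against 0.229%, 0.552% and 2.01% of all genes called in either direction. The lists had medians of -0.02, -0.01 and 0.01 on the log2 scale at those times, and all genes had 0.01, 0.00 and 0.01. Of the prenylation and recycling genes 7 of 8 were tested, of the exchange factors 26 of 48, of the Rab11 effectors 3 of 12, of the Rab7 effectors 7 of 11 and of the Golgi effectors 14 of 17, and 0 in each of these lists were called at any time. The same held for the Rab3 effectors (2 of 5 tested), the effectors and kinases of Rab8, Rab10, Rab12, Rab29 and Rab35 (5 of 16) and the Rab-like GTPases (3 of 7). Of the GTPase-activating proteins 21 of 41 were tested and of the Rab4 and Rab5 effectors 9 of 13, and each of these lists held 1 called gene. At these background shares, a count of 0 in lists of this size is near the background and is not a result about the list. The counts of 1 of 9 (Appl2, at all 3 times) and 1 of 21 (Tbc1d1, at 24 h) lie above these shares. Each rests on 1 gene and is not a result about its list either.

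Appl2, an adaptor that Rab5 recruits to early endosomes, fell at all 3 times. Its signals were 3.80 and 3.51 at 0 h, 1.52 and 1.96 at 24 h, 1.83 and 1.89 at 48 h, and 1.64 and 1.71 at 72 h. Every later library was below both 0 h libraries, a placing not counted over all genes, though 22.4% of genes tested had it at 72 h alone. The ratio of means at 72 h was 0.458, and the log2 differences were -0.77, -0.70 and -0.80 ± 0.078 (SE), with limma adjusted p of 0.0168, 0.0170 and 0.00645. Without either 0 h library the limma adjusted p at 72 h was 0.0818 or 0.0764, and without 72 h replicate 1 it was 0.0588; the call held in 5 of the 8 fits that leave out a library at 72 h, 4 at 48 h and 2 at 24 h. Without a filter on low signal the limma adjusted p was 0.138, 0.117 and 0.0538 at 24, 48 and 72 h, and no call was left. Tbc1d1, a GTPase-activating protein for Rab8a, Rab10 and Rab14, fell at 24 h, from 5.08 and 4.94 to 2.82 and 3.37 (log2 difference -0.56 ± 0.070, limma adjusted p = 0.0438). At 72 h it stood at 4.16 and 3.90 (limma adjusted p = 0.129), and the 24 h call ended without any 1 of the 8 libraries except 24 h replicate 2, with a limma adjusted p of up to 0.370. It also ended at the lower floor (limma adjusted p = 0.0532) and without a filter (0.171 in that limma fit).

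Some Rab genes share exonic bases or sequence with other genes. The labels and files do not state strand use, and 9 of the 57 Rab genes have over 10% of their exonic bases in exons of another gene. The highest shares were 75.4% for Rab43, 65.0% for Rab4b, 64.0% for Rab2b and 62.4% for Rab24, which overlaps Prelid1. For Rab6a the share was 19.0%, with Mrpl48 on the opposite strand. By sequence, 12.7% of the 50-base words of Rab7 and 13.6% of those of Rab11b recur in other genes' transcripts, mostly those of their pseudogenes Rab7-ps1 and Rab11b-ps2. The part of these shared bases in the values was not tested.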

How the data were processed

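The 8 libraries of AtT-20 ER-Pax7 cells were assigned to 0, 24, 48 or 72 h of tamoxifen by their labels. Ribosomal RNA was removed after column extraction, per the labels' protocols; the molecule field names genomic DNA, and the values were read as RNA. The deposited signal is mean read coverage over merged exons, normalized by the authors; the sources used here give neither its scaling rule nor a counting tool or annotation release. The submitters' processing notes name HISAT2 2.2, SAMtools 1.12 and deepTools 3.5, with mm10 and GRCm38 as builds. All 57 Rab identifiers and coordinates match GENCODE M21.

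Genes with a mean of at least 1 were fitted as log2(signal + 1), a scale that understates changes of low genes, in a single limma 3.58.1 fit (R 4.3.3) with an intensity trend, only group as a term and 4 residual degrees of freedom, and adjusted over all genes tested. The fit was also run on simulated data with independent noise of the size of the residuals and set differences at 72 h. That run had no effect shared by same-numbered libraries, so it does not bear on one. Errors are SD over 2 libraries unless SE is written. Named were Rab3a, Rab3b, called genes, the 3 highest, and the 5 largest differences in each direction at 72 h. Members, gene lists, the lower floor fit and the linear term were chosen with earlier results of these data known. Roles are from general knowledge, 1 role per gene. Alternatives were other pseudocounts, filters, scalings, no trend, a replicate block and leaving out each library.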

Additional observations from a re-analysis of the deposited data

How the results depend on the processing

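Across 15 alternative limma fits and 5 comparisons, 74 of 75 counts of called Rab genes were 0; the exception was the lower floor at 72 h, with 1 (Rab30), and the linear time term at the lower floor also gave 1. Leaving out each library at the lower floor gave 0 to 2 Rab genes at 72 h, and trimmed mean rescaling, quantile normalization and the replicate block each gave 1 (limma adjusted p of Rab30 0.0371, 0.0362 and 0.0472). The replicate numbers are shared between times. Deviations of same-numbered libraries correlated at 0.177 to 0.402 among 0, 24 and 48 h and at -0.0163 to 0.0989 for 72 h with each of them. Each later library except 72 h replicate 2 was also most similar to a library of its own number at another time. Since the labels name no shared source and not every correlation passed 0.1, the numbers were not read as pairs. Whether they mark a shared source was not tested. The replicate block gave 0 Rab genes in each of the 5 comparisons and 18, 24 and 154 genes in all at 24, 48 and 72 h, against 22, 53 and 193 without it. For the named Rab genes, no direction at 72 h against 0 h reversed in any of these fits, but leaving out a library moved sizes by over 1.5 times: Rab3a ran from 0.018 to 0.17, Rab11a from -0.18 to -0.020, Rab3d from -0.20 to -0.038, Rab34 from 0.17 to 0.37, Rab6a from -0.074 to -0.011, Rab10 from -0.14 to -0.070, Rab12 from -0.17 to -0.073, Rab21 from 0.038 to 0.11 and Rab3b (lower floor) from 0.073 to 0.71. Those of Rab2a, Rab7, Rab9, Rab40c and Rab30 (lower floor) moved by less. Rab6a at 24 h reversed to -0.0077 under quantile normalization. Leaving out a library reversed small differences at 24 h, where Rab10 ran from -0.12 to 0.0040, Rab12 from -0.088 to 0.0079, Rab21 from -0.069 to 0.068, Rab6a from -0.010 to 0.054, Rab9 from -0.016 to 0.0084 and Rab3b (lower floor) from -0.18 to 0.41. At 48 h, Rab12 ran from -0.094 to 0.0025 and Rab6a from -0.018 to 0.045. For 72 h against 24 h, Rab10 ran from -0.11 to 0.013, Rab11a from -0.12 to 0.046, Rab34 from -0.073 to 0.13, Rab3a from -0.049 to 0.099, Rab40c from -0.0057 to 0.039 and Rab7 from -0.0073 to 0.0080. The cause of these reversals was not tested. Under the replicate block Tbc1d1 had a limma adjusted p of 0.0755 at 24 h. In fits with 1 library of a time left out, the lone library is assumed to vary like the others.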
